A study of Rattus norvegicus with 6 samples.

Results

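The genes *Agt*, *Ace*, *Agtr1a*, *Agtr1b* and *Agtr2* of the renin-angiotensin system were followed in the skeletal muscle of newborn rats with a lower (LBW) or an average birth weight (ABW). The genes were taken by name and not by their measured values. All 5 had a row in the array table, each through 1 RefSeq transcript, among 9621 gene symbols that could be given to 9740 of the 26419 rows. The animals were male Wistar rats at 1 day of age, 3 in each group, and the RNA of each pup was measured on a single-colour NimbleGen array of its own. The LBW pups were from percentiles 5 to 25 of birth weight, and the control pups, called ABW here, carry a label of percentiles 25 to 75, whereas the protocol and the methods give a narrower range. The soleus and gastrocnemius were pooled within a pup, and since litters are not given, p-values cover the spread between these pups only. The values are log2 signals that the authors had normalized, and a difference of 1 is a 2-fold change. The arrays carry no count depth, and their number limits the precision.

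Angiotensinogen, encoded by *Agt*, is the precursor protein of angiotensin I, and the angiotensin-converting enzyme (*Ace*), found mainly on endothelial cells, turns this into angiotensin II. Angiotensin II acts through the AT1 receptor, which raises vascular tone and in rodents is encoded by a pair of closely similar genes, *Agtr1a* and *Agtr1b*. It also acts through the AT2 receptor (*Agtr2*), an X-linked gene that is widely expressed in fetal mesenchyme, skeletal muscle included, and declines after birth. AT2 signalling is commonly described as opposing that of AT1.

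No change was called between LBW and ABW muscle for any of the 5 genes. The threshold of the methods asks for a change of 1.5-fold or more with p under 0.05, read here as unadjusted. By this rule 0 of the 5 were called with limma, where 4.27% of all 26300 features tested were called (1.89% lower and 2.38% higher in LBW). After Benjamini-Hochberg adjustment 0% of the features were called, and the smallest adjusted p was 0.214 by limma, while 3250 features had an unadjusted p under 0.05. The groups overlapped for each of the 5 genes, compared to 17.4% of the features whose groups did not overlap. All 5 differences were below 0 (median -0.13), as were 55.6% of the features (median -0.023). With 3 pups against 3, the exact permutation test used below for single genes cannot give a p under 0.1.

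**Figure D1:**
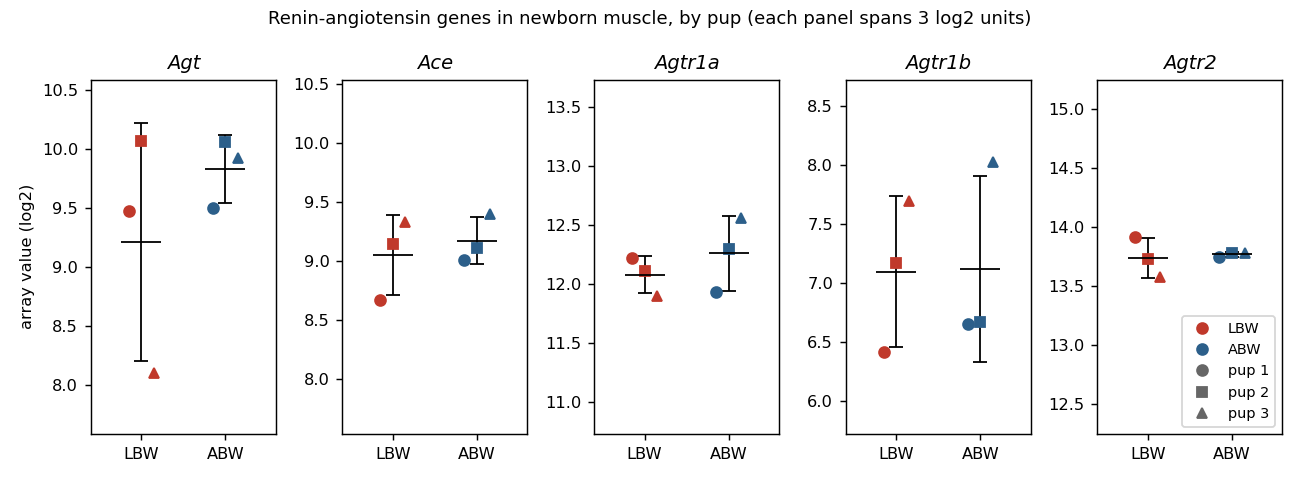
Array values (log2, vertical axis) of the 5 genes in 3 LBW pups (red) and 3 ABW pups (blue), with a panel for each gene and a mark shape for each pup number; horizontal lines are group means and bars are SDs. Every panel spans the same range, and the pups overlap in each, with LBW 3 lowest for *Agt* (8.10) and the ABW pups nearly level for *Agtr2* (13.75 to 13.78).

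*Agt* had the lowest mean in LBW relative to ABW among the 5 genes, and this rested on a single pup. Its signal was 9.47, 10.07 and 8.10 in LBW 1, 2 and 3, and 9.50, 10.06 and 9.92 in ABW 1, 2 and 3. LBW 3 thus lay below all other pups, whereas LBW 1 and LBW 2 were within 0.1 of ABW 1 and ABW 2. The LBW mean was 9.21 ± 1.01 and the ABW mean 9.83 ± 0.29 (SD, n = 3 each). The log2 difference of LBW minus ABW was -0.61 (SE 0.48, 95% confidence interval -1.77 to 0.55, adjusted p = 0.65 by limma; exact permutation test, 2-sided p = 0.5). Without LBW 3 it was -0.05, and without LBW 2 it was -1.04 with an unadjusted p of 0.0505 by limma. The SD of *Agt* within groups, 0.74, was higher than that of 99% of all features.

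*Ace* was at 8.67, 9.14 and 9.33 in the LBW pups and at 9.01, 9.11 and 9.40 in the ABW pups. Only LBW 1 lay outside the range of the ABW pups. The log2 difference was -0.13 (SE 0.19, 95% confidence interval -0.59 to 0.34, adjusted p = 0.83 by limma; exact permutation test, 2-sided p = 0.7), and without LBW 1 it turned to 0.06. On the linear scale the interval ran from 0.664 to 1.26 times the ABW level.

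Of the AT1 receptor genes, *Agtr1a* was at 12.22, 12.11 and 11.90 in the LBW pups and at 11.93, 12.30 and 12.56 in the ABW pups. LBW 1 and LBW 2 fell between ABW 1 and ABW 2, and LBW 3 lay just below ABW 1. The log2 difference was -0.18 (SE 0.18, 95% confidence interval -0.61 to 0.24, adjusted p = 0.718 by limma; exact permutation test, 2-sided p = 0.4). Leaving out each pup in turn kept the difference below 0, from -0.35 without ABW 1 to -0.04 without ABW 3. *Agtr1b* was at 6.42, 7.17 and 7.70 in the LBW pups and at 6.66, 6.67 and 8.03 in the ABW pups, in a range between the lower quartile of the arrays (6.17 to 6.23) and their median (8.70 to 8.76). The deposited values hold no detection call, so that how far this signal lay above background is unknown. A high pup stood in both groups, LBW 3 and ABW 3, and the groups had nearly equal means of 7.10 ± 0.64 and 7.12 ± 0.79 (SD, n = 3 each). The log2 difference of -0.02 had a wide interval, from -1.14 to 1.10 (SE 0.47, adjusted p = 0.989 by limma; exact permutation test, 2-sided p = 1), which is 0.453 to 2.14 times the ABW level. This interval does not exclude a change of *Agtr1b* of up to about that size. In a fit with the replicate numbers as a block the SE was smaller, at 0.19. The sequences of *Agtr1a* and *Agtr1b* are closely similar and the probes were not analysed here, so that the share of signal that each row takes from the other gene was not tested.

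*Agtr2* was at 13.92, 13.73 and 13.58 in LBW 1, 2 and 3, and at 13.75, 13.78 and 13.78 in ABW 1, 2 and 3. The ABW pups were almost identical (SD 0.02, n = 3), and the LBW pups lay on both sides of them (SD 0.17, n = 3). The log2 difference was -0.03 (SE 0.11, 95% confidence interval -0.28 to 0.23, adjusted p = 0.94 by limma; exact permutation test, 2-sided p = 0.7). This was the narrowest interval of the 5 genes, 0.821 to 1.17 times the ABW level, and a change of 1.5-fold in either direction lay outside it. Without LBW 3 the difference was 0.05. The signal was above that of 97% of the features.

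The fetal receptor gene was then set against each AT1 receptor gene within the pups. Since rows differ in their probes, the size of such a difference is no comparison of the abundance of the transcripts, and only its change between the groups was read. *Agtr2* minus *Agtr1a* was 1.70, 1.62 and 1.68 in the LBW pups and 1.82, 1.49 and 1.22 in the ABW pups. The LBW pups lay within the range of the ABW pups, and the log2 difference between the groups was 0.16 (exact permutation test, 2-sided p = 0.5), where single LBW and ABW pups differed by -0.20 to 0.48. *Agtr2* minus *Agtr1b* was 7.50, 6.56 and 5.88 in the LBW pups and 7.09, 7.12 and 5.75 in the ABW pups. Its log2 difference between the groups was 0.00 (exact permutation test, 2-sided p = 1), and single LBW and ABW pups differed by -1.23 to 1.75. A shift of *Agtr2* relative to either AT1 receptor gene was therefore not shown, and for *Agtr1b* the spread between pups leaves room for a large one.

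**Figure D2:**
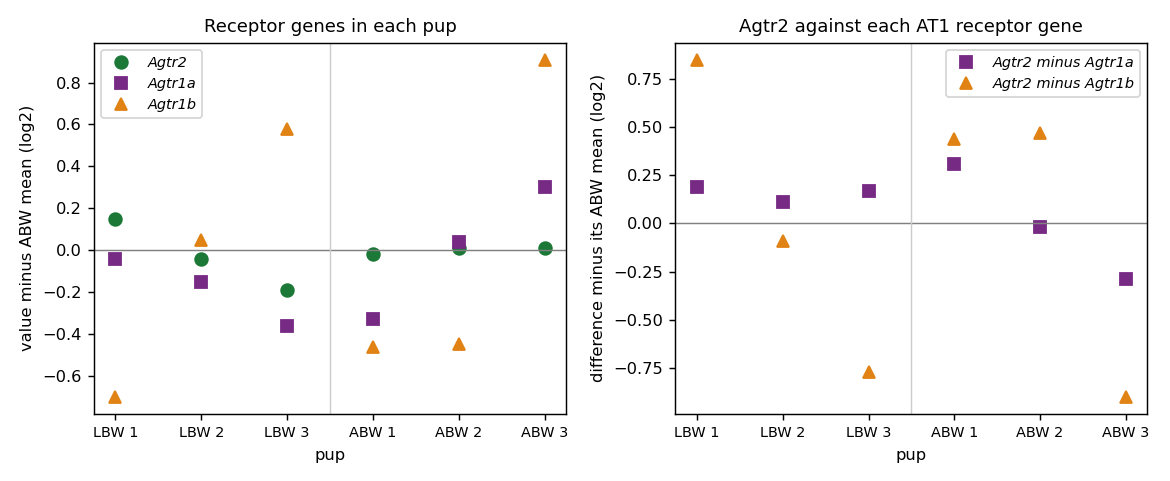
Left, values of the 3 receptor genes in each pup minus the mean of the ABW pups (log2); right, *Agtr2* minus each AT1 receptor gene within each pup, minus the mean of that difference in the ABW pups (log2). *Agtr2* has the smallest range in the left panel, *Agtr1b* is high in LBW 3 and ABW 3, and in the right panel the LBW and ABW pups overlap for both pairs.

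The 6 pups were also used to look for genes with the most similar profile, by the root mean square difference of their deviations from each gene's own mean over the 6 pups, among 9620 other symbols. For *Agt* these were *Cyp2d1* (0.208 log2), *Nxph3* (0.218) and *Cpa5* (0.222), and each of them was lowest in LBW 3. For *Agtr1b* they were *Klk1c9* (0.182), *Or2n1j* (0.257) and *Actg2* (0.279), which were highest in LBW 3 and ABW 3. For *Agtr2* they were *Klhl36* (0.024), *Amy2a3* (0.025) and *Uxs1* (0.025). The matches of *Agtr2* share its small range over the pups, which the measure favours.

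Among the other enzymes and receptors of the system, 15 of the 20 listed genes had a row, and 0 of the 15 were called. Their median log2 difference was 0.03, with 9 above and 6 below 0. *Mas1*, the receptor of angiotensin-(1-7), differed by -0.09 (SE 0.11).

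*Mme* (neprilysin, which can form angiotensin-(1-7)) was at 9.12, 8.03 and 9.66 in the LBW pups and at 8.04, 8.38 and 8.65 in the ABW pups. LBW 1 and LBW 3 were above all ABW pups and LBW 2 was level with the lowest, and the log2 difference was 0.58 (SE 0.41, adjusted p = 0.611 by limma). It passed the threshold of the methods without LBW 2 (1.03). *Cma1* (mast cell chymase, a protease that can form angiotensin II without *Ace*) was at 12.67, 12.60 and 12.76 in the LBW pups and at 12.78, 13.30 and 13.35 in the ABW pups. The groups did not overlap, but LBW 3 and ABW 1 were nearly level. Its log2 difference was -0.46 (SE 0.17, adjusted p = 0.352 by limma), short of the fold change of 1.5 except without ABW 1 (-0.65). *Rnpep* (aminopeptidase B) was the other of the 15 genes whose groups did not overlap, with a difference of 0.10. *Agtrap*, which encodes a protein that binds the AT1 receptor, differed by 0.13 (SE 0.11).

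**Figure D3:**
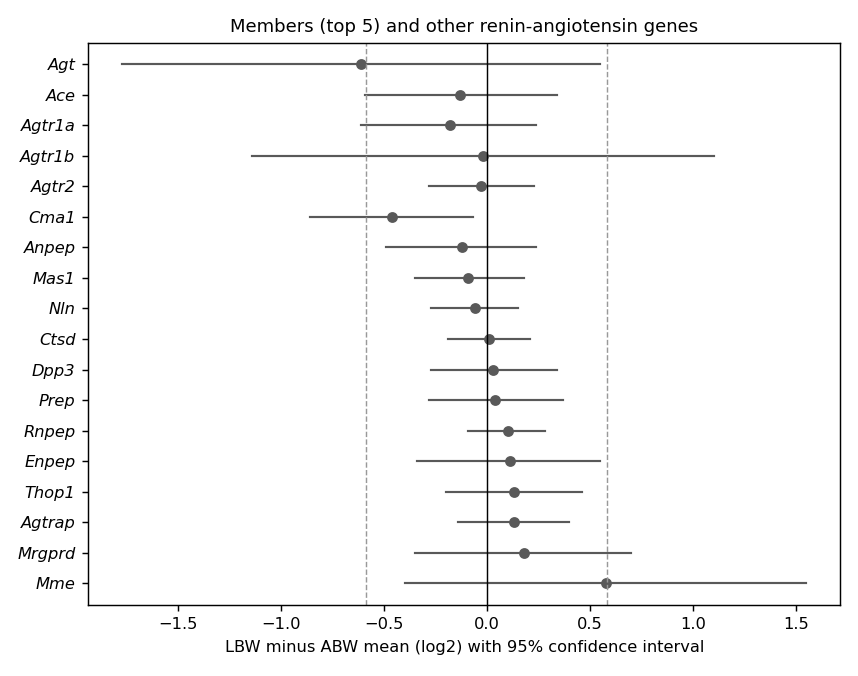
Differences of the LBW minus the ABW mean (log2, horizontal axis) with 95% confidence intervals by limma for the 5 genes (top) and other renin-angiotensin genes; dashed lines mark a fold change of 1.5 in either direction. No gene was called; the intervals of *Agt* and *Agtr1b* are the widest, and that of *Cma1* (-0.86 to -0.07) lies below 0.

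Of 12 kinin and mineralocorticoid genes, which belong to systems that share enzymes with or act downstream of angiotensin, all had a row and *Kng2* was called. *Kng2*, a kininogen gene, was at 5.73, 6.96 and 6.66 in the LBW pups and at 5.71, 5.40 and 5.59 in the ABW pups, so that LBW 1 was level with ABW 1. LBW 1 and the ABW pups lay below the lower quartile of each array, and how far they lay above background is unknown. The log2 difference of *Kng2* was 0.89 (SE 0.31, adjusted p = 0.343 by limma), and the call was lost without LBW 2, LBW 3, ABW 2 or ABW 3. The largest other differences were those of *Kng1* (0.40), the kinin receptor gene *Bdkrb1* (0.38) and the kinase gene *Sgk1* (0.27), of which *Kng1* passed the threshold without LBW 1 (0.62). *Nr3c2*, the mineralocorticoid receptor, differed by 0.22 (SE 0.18). *Cyp11b2*, the aldosterone synthase, was between 5.33 and 5.67 in the 6 pups, below the lower quartile of each array.

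The AT1 signalling and response genes comprise G proteins, their effectors and regulators, the NADPH oxidase and genes that angiotensin II is known to induce. Of 32 listed genes 29 had a row, with 12 higher and 17 lower in LBW (median log2 difference -0.05). Of those described here 4 were called and lower in LBW, where 4.27% of all features were called in either direction. Genes that are not reported here are outside this count, so it gives no direction for the whole list. *Edn1* (endothelin 1), which the study already reports and which was known to fall when the list was made, was at 6.37, 6.11 and 5.98 in the LBW pups and at 7.60, 7.61 and 7.99 in the ABW pups. The groups were far apart, and the log2 difference was -1.58 (SE 0.15, adjusted p = 0.214 by limma).

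*Grk5*, a kinase that desensitizes receptors of this type, fell by 0.60 on the log2 scale (SE 0.17, adjusted p = 0.302 by limma), with 9.50, 9.73 and 9.99 in the LBW pups and 10.07, 10.43 and 10.52 in the ABW pups. *Ccl2*, a monocyte chemokine, differed by -0.67 (SE 0.26) with an adjusted p of 0.378 by limma. *Cybb*, the phagocyte NADPH oxidase subunit, differed by -0.63 (SE 0.25) with an adjusted p of 0.379 by limma. The groups overlapped for *Ccl2*, where LBW 3 (11.39) lay above ABW 2 (11.34), and for *Cybb*, where LBW 1 (10.03) was level with ABW 1 (10.02). The call of *Ccl2* was kept only without LBW 3, and that of *Cybb* was lost without LBW 3, ABW 2 or ABW 3. That of *Grk5* was lost without LBW 1, ABW 2 or ABW 3, by the fold change alone. The largest other differences were those of *Ccn2* (0.54), *Plcb1* (0.45) and *Itpr1* (-0.37), of which *Ccn2* passed the threshold without LBW 2 (0.83). *Gnaq*, the G protein through which AT1 chiefly signals, was between 12.52 and 12.85 in the 6 pups and differed by -0.06.

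All 11 genes of AT2 signalling had a row, and *Pla2g4a* (cytosolic phospholipase A2) was called. It was at 10.08, 10.24 and 10.48 in the LBW pups and at 10.68, 10.84 and 11.17 in the ABW pups, without overlap. It fell by 0.63 on the log2 scale (SE 0.16, adjusted p = 0.279 by limma), and lost the call without LBW 1 or ABW 3. *Zbtb16*, a transcription factor gene whose protein binds the AT2 receptor and which glucocorticoids induce, was at 10.83 and 10.57 in LBW 1 and LBW 2, but at 8.55 in LBW 3, level with the ABW pups (8.80, 8.59 and 8.43). Its log2 difference was 1.37 (SE 0.58, adjusted p = 0.409 by limma), short of the threshold (unadjusted p = 0.0515), and it passed without LBW 3 (2.09). *Nos1*, the neuronal nitric oxide synthase of muscle fibres, was at 8.14, 8.04 and 8.21 in the LBW pups and at 7.62, 7.52 and 7.53 in the ABW pups. The groups were apart by more than their spread, and its difference of 0.58 (SE 0.09, unadjusted p = 0.000428, adjusted p = 0.214 by limma) was a fold of 1.49, just under the fold change criterion, which it met without LBW 2 (0.62) or ABW 1 (0.61). *Ptpn6*, a phosphatase gene linked to AT2, differed by -0.42 (SE 0.28) and was not called, but passed the threshold without ABW 1 (-0.71).

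**Figure D4:**
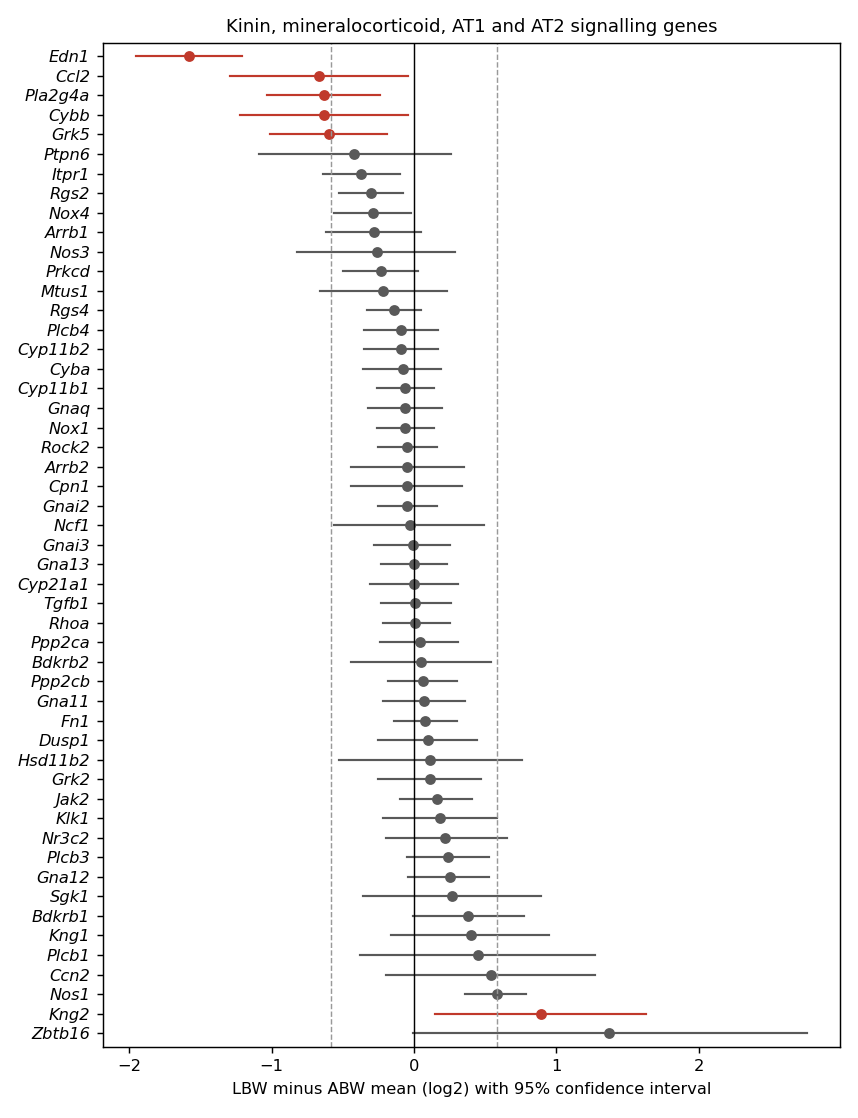
Differences of the LBW minus the ABW mean (log2, horizontal axis) with 95% confidence intervals by limma for the kinin, mineralocorticoid, AT1 and AT2 signalling genes; red marks the genes past the threshold of the methods and dashed lines a fold change of 1.5. *Edn1* (-1.58) stands apart on the left, and *Kng2* (0.89) is the called gene on the right.

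Whole muscle was measured, so that fewer cells of a type and less RNA per cell cannot be told apart. Adipocytes express *Agt*, and their markers were uneven between the pups. Of 12 markers 11 had a row, 10 were lower in LBW and 2 of these were called, *Lep* (-1.57) and *Pparg* (-1.20), which the study already reports. The call of *Lep* was kept only without ABW 1 when each pup was left out, and the calls of both were lost in a test with the variance of each gene alone. The median log2 difference of the 11 was -0.78. Averaged over these genes, the deviation from ABW was -0.51, -0.34 and -1.27 in LBW 1, 2 and 3, and -0.69, 0.42 and 0.27 in ABW 1, 2 and 3, so that LBW 3 was lowest for the markers and for *Agt*. Their summed linear signal was 54891, 58676 and 42422 in the LBW pups and 53318, 81257 and 75794 in the ABW pups, and *Fabp4*, the most abundant by signal, differed by -0.19. The part of adipocytes in the low *Agt* of LBW 3 was not tested.

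**Figure D5:**
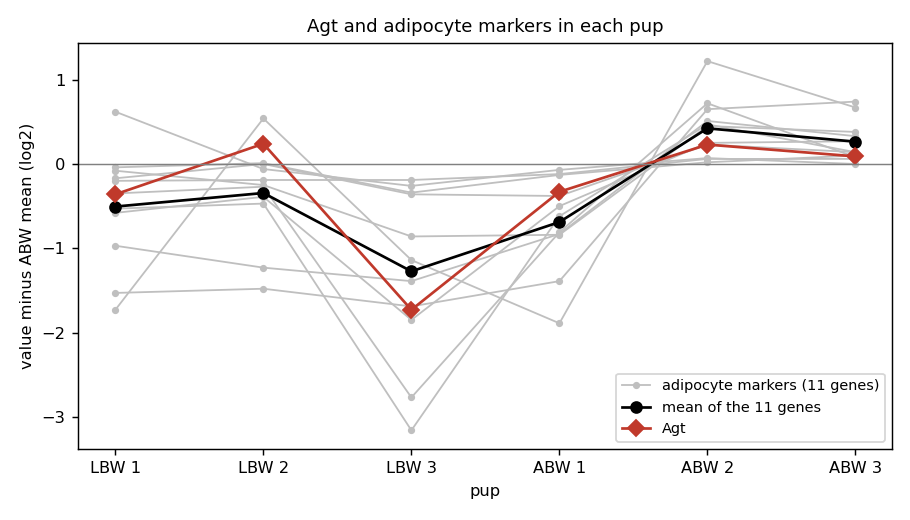
Values minus the ABW mean (log2, vertical axis) of *Agt* (red), 11 adipocyte markers (grey) and the mean of these 11 genes (black) in each of the 6 pups; lines only join the values of a gene. *Agt* and the mean of the markers (-1.27) are both lowest in LBW 3.

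Endothelial cells carry *Ace*, and 0 of their 7 markers with a row (of 12 listed) were called (median -0.12), with *Cldn5*, the brightest, at -0.16. Of the 7, 4 were lower and 3 higher in LBW. The groups did not overlap for 2 of the 7, both lower in LBW, compared to 17.4% of all features without overlap. Of the smooth muscle and pericyte markers, cells in which *Agtr1a* is known, 0 of 8 with a row (of 12) were called (median -0.05), and *Acta2* differed by 0.02. Of the fibroblast and mesenchyme markers, 0 of 5 with a row (of 13) were called (median -0.13), and *Dcn* differed by -0.06. Among mast cell markers, which include *Cma1*, *Mcpt1* was called (0.77, higher in LBW) of 8 with a row (of 11), while the median was -0.29. None of 8 macrophage markers with a row (of 10) was called (median -0.21), with *C1qc* at -0.22. Of the skeletal muscle markers, *Myh4*, the fast myosin IIb gene, lay below the median of each array (7.68 to 8.38), and the others lay above it in all pups. None of 11 with a row (of 18) was called, their median was 0.00 and *Acta1* lay between 15.15 and 15.41.

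LBW 1 and LBW 3 stood apart from the other pups by markers of bone and cartilage. Of 11 bone markers with a row (of 14), 6 were called, all higher in LBW (median 1.58), as were 2.38% of all features. The study already reports *Spp1*, *Ibsp*, *Bglap* and *Alpl*, and *Acan* of the cartilage markers, as higher in LBW. The lists were made with this known. Averaged over the 11 genes, the deviation from ABW was 2.74, 0.44 and 3.55 in LBW 1, 2 and 3, and -0.10, -0.04 and 0.15 in ABW 1, 2 and 3. Their summed linear signal was 35936, 4624 and 58128 in the LBW pups and 2483, 2607 and 2989 in the ABW pups. *Spp1* (5.02), *Ibsp* (4.73) and *Bglap* (3.60) moved most, and *Phex*, the brightest by mean signal, differed by 0.60. The call of *Alpl* was lost without LBW 1, that of *Phex* without LBW 1, LBW 3 or ABW 1, and that of *Smpd3* without LBW 1, LBW 3 or ABW 2. Those of *Bglap*, *Alpl* and *Smpd3* were lost in the test with the variance of each gene alone. The mean deviation of the 7 cartilage markers with a row (of 12) was 1.04, -0.08 and 1.74 in the LBW pups, and *Acan* (2.07) was called, which was kept only without LBW 2 (3.07) when each pup was left out, while *Col2a1*, the brightest, differed by 0.33. LBW 1 and LBW 3 were also the pups with the higher *Mme*. The part of these tissues in the values of *Agt* and *Mme* was not tested.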

How the data were processed

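Skeletal muscle RNA of 6 pups was hybridized to NimbleGen single-colour arrays. The authors deposited 1 normalized log2 value per transcript and pup, which stands for 5 probes. The submitters' processing notes name RMA, and the methods name in-house R scripts and Bioconductor, with no further detail in the sources used here. RMA background-corrects and quantile-normalizes probes and summarizes them, so that differences in overall signal between pups are removed and weak signals are compressed.

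Rows were named by RefSeq accession from a gene table of the assembly GRCr8. The array design follows another build, so no coordinates are given. Rows of a symbol were averaged (26300 features), and LBW and ABW were compared with limma 3.58.1 in R 4.3.3 across all features with Benjamini-Hochberg adjustment, after a test on simulated data. Single values were also tested by exact permutation in Python 3.11.15. Pups are biological replicates per the labels.

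The members and gene lists were chosen with earlier results of these data known. Named were the 5 genes; of each pathway list, the called genes and at most 3 others that moved most; of each marker list, at most 3 called genes and the brightest; and the 3 symbols with the most similar profile for *Agtr2* and each of the 5 genes that spans more than 1 log2 unit. Some genes of the pathway lists, which stay in the counts and fits, are not reported here or drawn. *Mas1*, *Rnpep*, *Agtrap*, *Nr3c2*, *Cyp11b2* and *Gnaq* were added for their roles or after their values were seen. Results were recomputed with single pups removed, with replicate numbers blocked, after quantile normalization or median centring of the arrays, without the 25% dimmest features, with limma's array weights, trended or robust variance, by a 2-tailed test with the variance of each feature alone, and on unaveraged rows. The study states a 2-tailed test of that kind for its data in general, and the test used for the arrays is not given in the sources used here.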

Additional observations from a re-analysis of the deposited data

How the results depend on the processing

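None of the 5 genes passed the threshold of the methods under any of the 15 alternatives. The lowest unadjusted p by limma was 0.0505, for *Agt* without LBW 2. *Agt* and *Agtr1a* were below 0 under all of them, with ranges of -1.04 to -0.05 and -0.35 to -0.04. The direction of the others turned with single pups. *Ace* was 0.06 without LBW 1 (-0.27 to 0.06 with each pup left out), *Agtr1b* was 0.32 without LBW 1 and 0.43 without ABW 3 (-0.32 to 0.43), and *Agtr2* was 0.05 without LBW 3 (-0.11 to 0.05) and 0.01 with array weights. The cause was not tested. The change of *Agtr2* minus *Agtr1a* lay between 0.01 and 0.31 with each pup left out, and that of *Agtr2* minus *Agtr1b* between -0.45 and 0.38.

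Over all features, 1124 were called, between 798 and 1546 with each pup left out and 584 by a 2-tailed test with the variance of each feature alone. After adjustment 0 were called, and between 0 and 125 with each pup left out (125 without LBW 2). Of the genes of the pathway and marker lists, 17 were called, 8 by that test, and between 10 and 27 with each pup left out (10 without LBW 1, 27 without LBW 2, 11 without LBW 3, 10 without ABW 2 and 10 without ABW 3). The 2-tailed test ended the calls of *Kng2*, *Ccl2*, *Cybb*, *Lep*, *Pparg*, *Bglap*, *Alpl*, *Smpd3* and *Acan*. With array weights *Phex* and *Cybb* lost their calls, while *Zbtb16* and *Chad* were among those gained (19 listed genes called). Median centring of the arrays also ended the call of *Phex*, and *Chad* gained one (17 called).

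Pups with the same replicate number deviated together weakly (correlations 0.087, 0.104 and 0.055). LBW and ABW pups with different numbers had lower correlations, from -0.096 to 0.021. What the numbers stand for is not given, and a pairing of the pups was not tested. Each number occurs once in each group, so that a fit with a replicate block cannot change the differences. They were -0.61 for *Agt*, -0.13 for *Ace*, -0.18 for *Agtr1a*, -0.02 for *Agtr1b* and -0.03 for *Agtr2*, with 0 of the 5 called. The SE with the block was 0.19 for *Agtr1b* (0.47 without it), 0.11 for *Ace* (0.19) and 0.41 for *Agt* (0.48). For *Agtr1a* it was 0.2 (0.18 without the block) and for *Agtr2* 0.11 (0.11). The block moved the features called to 1230 and the listed genes called to 19, with *Zbtb16*, *Chad* and *Dmp1* among those gained and *Ccl2* and *Cybb* lost. No signal over background is given, which limits what can be said of dim rows such as *Agtr1b*.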
